A study of Mus musculus with 4 samples.

Results

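Cluster 3 is 1 of 6 clusters that the authors' cell table labels AC, for astrocyte, in mouse midbrain. Its cells were taken from that table by cell type label and cluster number, and they numbered 1096 of 4156 midbrain astrocytes, of 11630 midbrain cells and of 21644 cells in the series. The wildtype library gave 802 of these cells and the transgenic library 294. The study sequenced single cells (10x Genomics 3′ chemistry) from enzymatically dissociated frontal cortex and midbrain, with a procedure meant to enrich glia and vessel cells. The transgenic mice are labelled Hua-Syn(A53T), a line studied as a model of Parkinson disease, and the controls were wildtype littermates labelled C57BL/6. Both genotypes were 6 to 9 months old, the labels name no agent, and the promoter that drives the transgene is not given in the sources used here. Each genotype and region was 1 library said to come from 3 mice, although the label that counts mice reads 3 on the cortical libraries and 0 on the midbrain ones. No mouse is named for any cell, so a genotype is 1 sample here, intervals cover counting error only, and no p-value is given. Fewer expressing cells and less RNA per cell cannot be told apart in the summed values.

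Astrocytes are glia that clear glutamate and potassium from the space around neurons, ensheathe synapses and blood vessels, and differ between brain regions in ways laid down by the patterning genes of the embryo. Cyp26b1 encodes an enzyme that breaks down retinoic acid, Pax3 a paired-box transcription factor of the dorsal neural tube and midbrain roof, and Acvr1c the type I receptor ALK7 for activins and nodal. These 3 genes were given as the marks of cluster 3. Levels below are in CPM: the unique molecular identifiers (UMIs) of a gene summed over the cells of a cluster in 1 library, per 1000000 UMIs of those cells. Ratios are log2 ratios of CPM, and their intervals are exact 95% intervals for counting error.

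The cluster 3 cells held 4304050 UMIs in the wildtype library and 1837851 in the transgenic library. All 15 astrocyte markers were detected, and each was higher than in the midbrain microglia of the same library. Their summed level was 27242 CPM in wildtype and 27459 CPM in transgenic cluster 3 cells, against 2189 and 1518 CPM in microglia and 32431 and 32956 CPM in the other astrocytes. The label of astrocyte therefore holds, although none of the 10 leading genes of the cluster is a general astrocyte marker. No barcode was shared between the cluster 3 cells of the libraries, and 4 were shared between the midbrain libraries in all. Cells of cluster 3 were shallower than those of the neighbouring cluster 1, with a median of 5346 UMIs in wildtype and 6166.5 in transgenic cells, against 7695 and 9703. Cluster sizes are not compared between genotypes, since genes that set the cluster apart, among them Amy1 and Nkx6-2, differed between the libraries.

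Of the 3 marks, Cyp26b1 and Pax3 were higher in cluster 3 than in the other astrocytes of both libraries and Acvr1c was not. Since the clusters were made from these genes, the values describe the cluster and test nothing. Cyp26b1 (chromosome 6, 84571414 to 84593908, minus strand) was at 27.9 CPM in wildtype and 25.6 CPM in transgenic cluster 3 cells, on 120 and 47 UMIs. In the other astrocytes it was at 10.3 and 10.9 CPM, which gives log2 ratios of 1.44 (1.07 to 1.81) and 1.22 (0.70 to 1.73). By value, cluster 3 stood above clusters 1 and 5. Cluster 1 was at 19.8 and 18.2 CPM, and the intervals of the ratio of cluster 3 to it ran from 0.10 to 0.89 in wildtype and from -0.04 to 1.003 in transgenic cells, so that the order of this pair was not resolved in the transgenic library. Cluster 5 was at 3.53 and 1.19 CPM. Cluster 22 had too few UMIs in all, 139152 and 93645, to be placed in this order.

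Pax3 (chromosome 1, 78101267 to 78197134, minus strand) was at 35.8 CPM in wildtype and 43.5 CPM in transgenic cluster 3 cells, against 15.9 and 21.7 CPM in the other astrocytes. The log2 ratios were 1.17 (0.86 to 1.49) and 1.005 (0.61 to 1.38). Cluster 1 held nearly the same Pax3 level, 33.7 and 34.4 CPM, and both intervals of the ratio between the clusters included 0. Clusters 3 and 1 thus shared Pax3, while cluster 5 was at 2.77 and 4.38 CPM.

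Acvr1c (chromosome 2, 58267453 to 58357895, minus strand) was at 39.0 and 39.2 CPM in cluster 3 and at 36.1 and 33.3 CPM in the other astrocytes, and both intervals of that ratio included 0. Its highest level was in cluster 1, at 68.7 and 51.0 CPM. The log2 ratio of cluster 3 to cluster 1 was -0.82 (-1.09 to -0.55) in wildtype and -0.38 (-0.78 to -0.003) in transgenic cells. Acvr1c was thus more a mark of cluster 1 than of cluster 3 in these data, although cluster 3 stood above cluster 5, at 14.1 and 12.3 CPM.

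**Figure D1:**
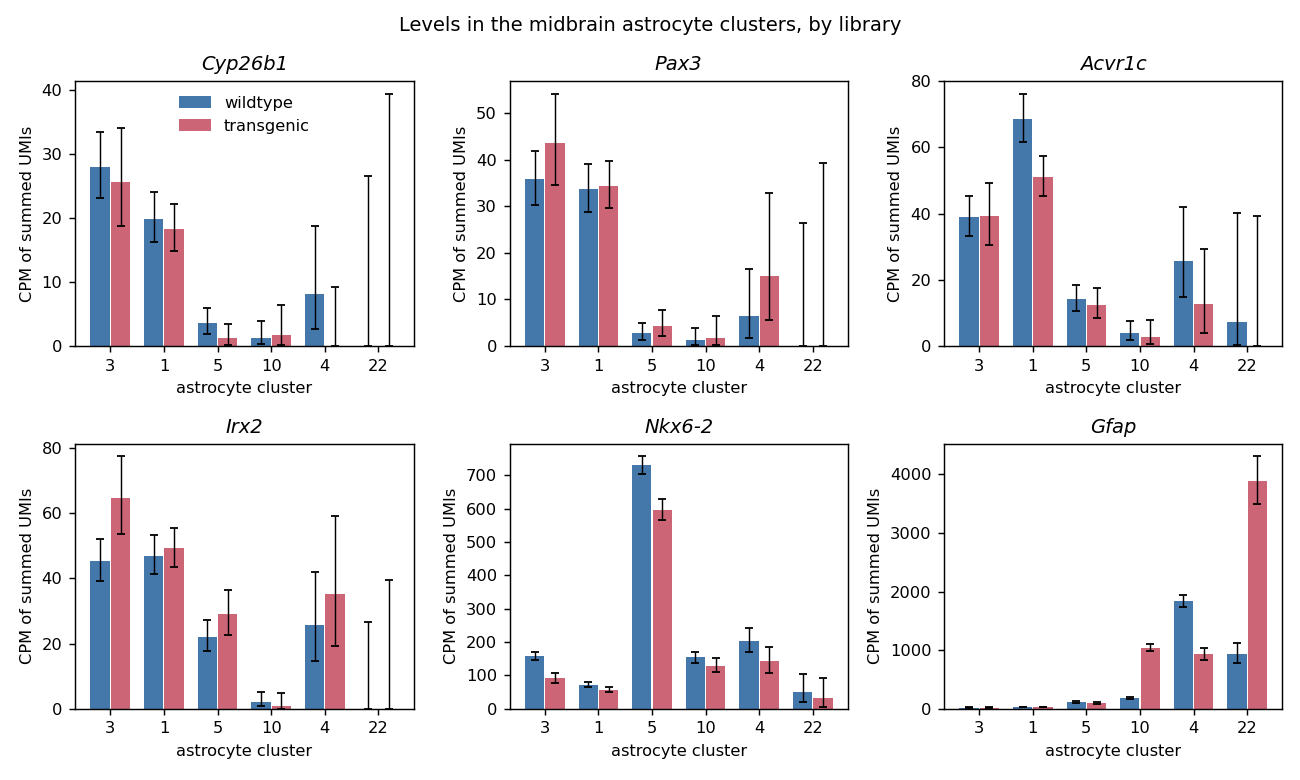
Level of 6 genes in each midbrain astrocyte cluster (x axis, cluster number) as CPM of summed UMIs (y axis), with wildtype bars in blue, transgenic bars in red and error bars giving the exact Poisson 95% interval. Cyp26b1 and Pax3 stand high in clusters 3 and 1, Acvr1c and Irx2 are shared with cluster 1, Nkx6-2 peaks in cluster 5, and Gfap is at 17.7 and 20.7 CPM in cluster 3 and 30.6 and 30.5 CPM in cluster 1 against 189 and 241 CPM over all other astrocytes.

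The promoters of the 2 marks with an entry in the RefSeq promoter table (GRCm38.p6, 250 bases before to 50 after the start) are shown because these genes differed between clusters 3 and 1 of the wildtype library in opposite directions, Cyp26b1 being higher in cluster 3 and Acvr1c in cluster 1. Both lines read 5′ to 3′ on the minus strand, and capitals mark TATAAA, the letters of the TATA box, searched on both strands (TTTATA on the other).
Cyp26b1, chr6:84593761-84594060: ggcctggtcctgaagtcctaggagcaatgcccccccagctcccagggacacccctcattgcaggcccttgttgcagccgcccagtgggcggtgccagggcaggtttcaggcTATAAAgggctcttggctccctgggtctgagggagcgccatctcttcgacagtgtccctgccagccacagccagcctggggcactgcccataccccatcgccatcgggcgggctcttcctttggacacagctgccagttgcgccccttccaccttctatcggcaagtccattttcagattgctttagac
Acvr1c, chr2:58357709-58358008: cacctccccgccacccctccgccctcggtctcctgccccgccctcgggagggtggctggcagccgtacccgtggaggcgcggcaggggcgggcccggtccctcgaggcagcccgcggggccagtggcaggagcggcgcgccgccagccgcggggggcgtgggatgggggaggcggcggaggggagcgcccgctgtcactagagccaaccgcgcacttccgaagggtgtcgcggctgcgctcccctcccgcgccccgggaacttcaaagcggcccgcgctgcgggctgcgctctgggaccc
The Cyp26b1 window held 1 match, 9 CpG and 62.3% G and C, and the Acvr1c window, 1 of 2 starts listed for the gene, held no match, 39 CpG and 79.0% G and C. Of 32544 such windows, 13.6% held the letters and the median G and C content was 53.0%. The Cyp26b1 match began at position -139 relative to the start. A match is only a run of letters, and nothing in these data shows which factor is bound there.

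Few cluster 3 cells had a UMI of any of these sparse genes, so the marks describe the sum of the cells better than a single cell. After each cell was thinned to 3000 UMIs, which left out 71 wildtype and 29 transgenic cells, Pax3 was detected in 8.35% (6.44 to 10.6, exact binomial interval) of wildtype and 10.6% (7.14 to 14.9) of transgenic cluster 3 cells. Unthinned, the shares were 12.6% and 16.7%. Cluster 1 had Pax3 in 7.56% and 8.27% of thinned cells, with intervals overlapping those of cluster 3, and in 17.0% and 19.4% unthinned. In microglia, which should lack the gene, it was found in 0 of 968 wildtype cells, which allows a share of up to 0.310%, and in 0.148% of transgenic cells. Cyp26b1 was detected in 5.06% and 5.66% of thinned cluster 3 cells (7.23% and 9.52% unthinned), with 0.103% of wildtype microglia. Median depths were 6749 and 8317.5 UMIs in wildtype and transgenic microglia. Without thinning, 70.6% of wildtype and 62.2% of transgenic cluster 3 cells had no UMI of Cyp26b1, Pax3 or Acvr1c, and 7 and 4 cells had UMIs of all 3. The marks did not come from 1 depth class alone: over 3 classes of wildtype cells of rising depth (268, 266 and 268 cells), Cyp26b1 was at 26.6, 25.2 and 30.5 CPM and Pax3 at 41.5, 28.0 and 38.8 CPM.

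Cluster 3 differed little from cluster 1 by fold and more from the others. At 2 times or more in both libraries and at least 20 CPM, 1 gene (0.0135% of 7389) was higher than in cluster 1 and 0 were lower. That gene, named after its values were seen, was the chemokine gene Cxcl10, at 2.79 and 26.1 CPM in cluster 3 against 1.15 and 0.721 CPM, and 35 of its 48 UMIs in transgenic cluster 3 cells lay in 2 cells. Against cluster 5, 32 genes (0.423% of 7565) were higher and 54 (0.714%) lower, and against cluster 10, 146 (1.87% of 7794) were higher and 235 (3.02%) lower. Against cluster 4, 1134 genes (14.2% of 7959) were higher and 618 (7.76%) lower, and against cluster 22, 827 (9.28% of 8913) were higher and 1342 (15.1%) lower, but those clusters held a median of only 1312 to 1423 UMIs per cell, and the part of depth in the counts was not tested. Against all other astrocytes together, 3 genes (0.0403% of 7440) were higher and 30 (0.403%) lower. The 3 were Cyp26b1, Pax3 and the predicted gene Gm26870, at 20.4 and 41.4 CPM against 8.71 and 18.2 CPM.

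**Figure D2:**
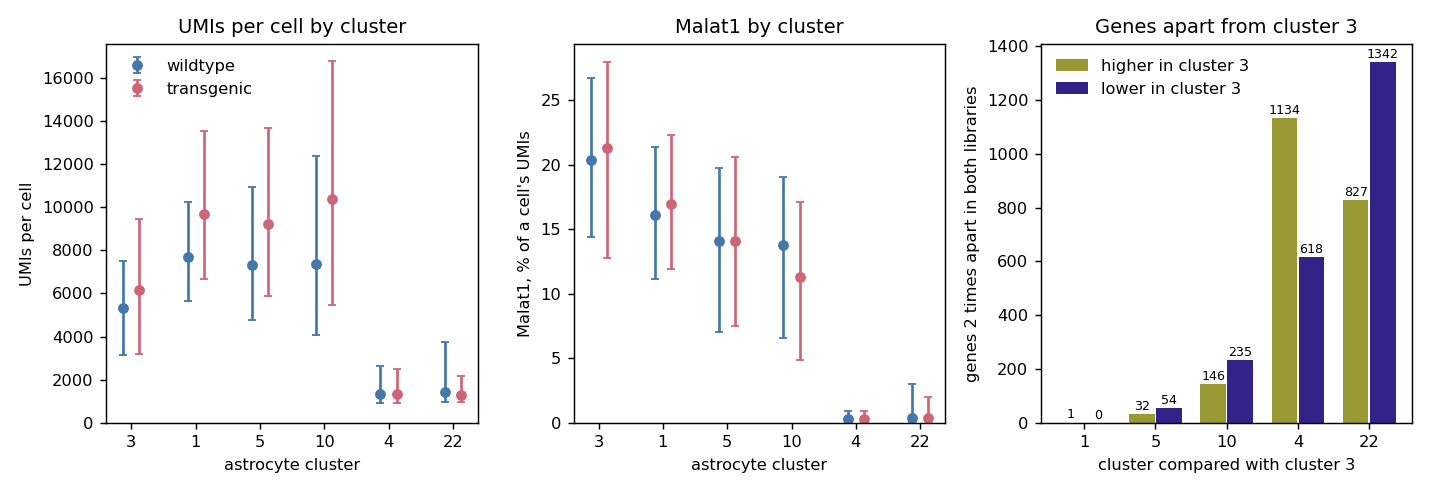
UMIs per cell (left) and the percent of a cell's UMIs from Malat1 (middle) in each midbrain astrocyte cluster, as medians with bars from the 10th to the 90th percentile of cells, and the number of genes 2 times or more apart from cluster 3 in both libraries (right). Cluster 3 has fewer UMIs per cell than clusters 1, 5 and 10 and the highest median Malat1 share, 20.3% in wildtype and 21.3% in transgenic cells, and cluster 1 has 1 gene apart from it.

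Malat1, a long non-coding RNA retained in the nucleus, was the most abundant gene that set the cluster apart. It took 20.6% of cluster 3 UMIs in wildtype and 21.7% in transgenic cells, 16.4% and 17.0% in cluster 1, and 13.3% and 13.6% in cluster 5. The log2 ratio to the other astrocytes was 0.58 in each library. Long non-coding genes, Malat1 among them, were more often higher than lower, although most did not pass the rule. At 1.2 times or more with intervals leaving out 0 in both libraries, the rule used for gene lists below, 45 of 434 tested long non-coding genes (10.4%) were higher than in the other astrocytes and 13 lower, against 308 higher and 969 lower of 10658 coding genes. Against cluster 1, 16 of 301 long non-coding genes were higher and 0 lower, against 59 higher and 284 lower of 9818 coding genes. Cluster 3 cells had fewer UMIs and, after thinning, fewer genes per cell, with a median of 1457 in wildtype and 1440 in transgenic cells against 1497 and 1499 in cluster 1. The thinned UMIs include Malat1, so a higher Malat1 share leaves fewer UMIs for other genes, and its part in this gap was not tested. The mitochondrial share was 6.74% and 7.17% of UMIs in cluster 3 and 6.70% and 6.80% in cluster 1. Within the cluster, the shallowest of the 3 depth classes of wildtype cells had a median Malat1 share of 19.6% and the deepest 20.6%, so the share was not highest in the shallowest cells. The part of nuclear RNA, cell damage or depth in the Malat1 share was not tested.

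A higher Malat1 share lowers every other gene's CPM by construction, so the balance of higher and lower coding genes was also taken without it. With Malat1 left out of the total, all log2 ratios to the other astrocytes moved up by 0.12 in wildtype and 0.13 in transgenic cells, and those to cluster 1 by 0.07 and 0.08. The coding genes then numbered 844 higher and 422 lower against the other astrocytes, in place of 308 and 969, and 188 higher and 95 lower against cluster 1, in place of 59 and 284. The side with more coding genes thus turned with the scaling, and ratios nearer to 0 than these shifts have no settled direction.

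For part of the other named genes with large ratios to the other astrocytes, cluster 1 was close to cluster 3. Unc13c, a presynaptic priming factor, was at 28.1 and 29.4 CPM against 14.1 and 12.5 CPM, with log2 ratios of 0.99 (0.64 to 1.34) and 1.23 (0.74 to 1.71), and cluster 1 was at 24.2 and 18.4 CPM. Fam19a1, which encodes a secreted chemokine-like peptide, was at 36.9 and 53.9 CPM against 19.2 and 26.1 CPM, and at 34.6 and 39.5 CPM in cluster 1. For both genes the interval of the ratio to cluster 1 included 0 in wildtype cells and left it out in transgenic cells. Syt10, a synaptotagmin, was at 27.4 and 39.7 CPM against 17.7 and 24.3 CPM, and in cluster 1 it was at 17.1 and 25.6 CPM. Cluster 5 held Syt10 at 30.5 and 32.6 CPM, above cluster 3 by value in wildtype cells. Dlg2, a synaptic scaffold, was at 37.2 and 37.5 CPM against 24.9 and 21.8 CPM, with 31.7 and 25.4 CPM in cluster 1. The 12 neuronal markers summed to 40.4 CPM in wildtype and 47.9 CPM in transgenic cluster 3, to 41.6 and 44.7 CPM in cluster 1 and to 57.7 and 53.6 CPM in the other astrocytes, and the part of neuronal RNA in these levels was not tested.

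Others encode enzymes, channels and receptors. Amy1, an amylase, was at 36.2 and 67.5 CPM against 19.3 and 30.5 CPM in the other astrocytes, with log2 ratios of 0.91 (0.61 to 1.21) and 1.15 (0.83 to 1.45). Its reads are uncertain, because amylase genes are near-identical copies and Amy1 overlaps Rnpc3 on the same strand. Aqp9, a channel for water and glycerol, was at 46.0 and 49.5 CPM against 28.1 and 31.0 CPM. Pfkfb4, which sets the level of a glycolysis regulator, was at 75.3 and 95.8 CPM against 48.7 and 58.8 CPM, but cluster 1 was at 71.6 and 73.6 CPM. Il15ra (the interleukin-15 receptor alpha chain), Ptgs1 (cyclooxygenase-1), Tex10, Pyroxd1 and Ccdc24 and Irx2 were also among the named genes, with log2 ratios between 0.57 and 0.84. For Il15ra and Ptgs1 the intervals of the ratio to cluster 1 included 0 in both libraries. All of these ratios to the other astrocytes had intervals leaving out 0 in both libraries.

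Nnat (neuronatin, an imprinted endoplasmic reticulum protein) was at 305 and 172 CPM against 973 and 629 CPM, with log2 ratios of -1.67 (-1.76 to -1.59) and -1.87 (-2.03 to -1.70). Id4, an inhibitor of basic helix-loop-helix factors and a BMP target, was at 174 and 99.0 CPM against 391 and 202 CPM. The tetraspanin Cd9 was at 85.5 and 82.7 CPM against 209 and 206 CPM, and the complement gene C4b at 20.4 and 28.3 CPM against 64.3 and 56.2 CPM. S100a6, Apoc1, Pantr1 and Scrg1 had log2 ratios between -1.35 and -1.03. Cluster 1 was close for some of these. C4b was at 24.2 and 24.3 CPM there and S100a6 at 40.4 and 42.4 CPM. For both genes the intervals of the ratio to cluster 1 included 0 in each library. For Cd9 (106 and 87.6 CPM there) the interval left out 0 in wildtype cells only. For Apoc1 and Pantr1 it did so in transgenic cells only. Nnat, Id4 and Scrg1 were lower in cluster 3 than in cluster 1, with intervals leaving out 0 in each library.

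The comparison with cluster 1 is the closest one. Of genes with at least 50 UMIs and 20 CPM in each library of cluster 3, which leaves out Cxcl10, Amy1 stood first by the smaller of both libraries' ratios, with log2 ratios of 0.91 and 0.85. Nkx6-2, a homeobox factor of the ventral neural tube, was at 159 and 91.4 CPM in cluster 3 against 72.2 and 57.5 CPM in cluster 1, and at 730 and 597 CPM in cluster 5. On that gene cluster 3 lay between its neighbours. It was detected in 24.8% and 16.2% of thinned cluster 3 cells, in 14.7% and 11.5% of cluster 1 cells and in 72.4% and 66.9% of cluster 5 cells, with 1.34% and 1.19% in microglia. The unthinned shares were 29.6% and 21.4% in cluster 3. Syt10, Aqp9 and Sirt1, a deacetylase, were also higher than in cluster 1, with log2 ratios between 0.53 and 0.71. Lower than in cluster 1 were Hsd11b1, which regenerates active glucocorticoid, at 180.1 and 163 CPM against 290.2 and 277 CPM, with log2 ratios of -0.69 (-0.82 to -0.56) and -0.76 (-0.95 to -0.58), and Tmem38a, the secreted peptide Apln, the carboxypeptidase inhibitor Lxn and Nnat, with log2 ratios between -0.83 and -0.58.

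Among 27 gene lists, a member counts as higher or lower where both libraries differ by 1.2 times or more with intervals leaving out 0. Against the other astrocytes this held for 3.18% (higher) and 8.80% (lower) of the 11178 genes tested, whose median log2 ratio was -0.03 in wildtype and -0.05 in transgenic cells. Of the midbrain and diencephalic patterning list, 2 of 18 tested members were higher (Pax3 and Irx2) and 1 lower (Nkx6-2), and the list's medians were 0.20 and 0.23. Irx2, an Iroquois homeobox factor, was at 45.3 and 64.8 CPM against 29.0 and 37.3 CPM, but at 46.9 and 49.2 CPM in cluster 1. Of the telencephalic patterning list, 8 of 10 tested members were lower and 0 higher, with medians of -2.57 and -1.77, where a gene at 0 UMIs was set to a floor of 3. Hopx was at 1.16 and 2.18 CPM against 96.8 and 44.6 CPM, and Nr2f2 at 37.2 and 34.3 CPM against 57.1 and 55.7 CPM. Without Malat1 in the total, the midbrain list had 5 higher and 1 lower, and the telencephalic list again 0 higher and 8 lower. In cluster 1 none of the 4 tested members of that list differed from cluster 3 by the rule. Hopx, Lhx2, Emx2 and Crym had too few UMIs to be tested in that comparison. In cluster 1 Hopx was at 4.04 and 1.80 CPM, Lhx2 at 0.58 and 0.90 CPM, Emx2 at 1.54 and 1.80 CPM and Crym at 0.77 and 0.72 CPM. Their low levels were thus shared with cluster 1, and the pooled levels lay in the other clusters. Hopx, Lhx2 and Crym also stand in the marker lists for cerebellar glia or tanycytes.

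Few other members of the marks' pathways differed. In the retinoid list 1 of 15 tested members was higher, Cyp26b1, and 3 were lower (2 without Malat1 in the total). The nuclear receptor gene Nr2f2, given above, was among the lower ones, and Dhrs3, whose enzyme reduces retinaldehyde to retinol, was at 91.5 and 88.7 CPM against 110.3 and 121 CPM but was not lower by the rule without Malat1. In the activin, nodal and TGF-beta list 0 of 21 tested members were higher or lower, with medians of 0.07 and -0.01. In the Notch list the ligand gene Jag1 was higher, at 67.4 and 82.7 CPM against 47.3 and 62.0 CPM, while the targets Hes5 and Nrarp and Heyl were lower, Hes5 at 408 and 448 CPM against 690 and 674 CPM, which makes 1 higher and 3 lower of 11 (2 and 3 without Malat1). The BMP list had 4 of 16 lower (1 without Malat1 in the total), the Wnt list 1 of 20 higher (Lgr6) and 3 lower, led by Dkk3 at 8.36 and 7.07 CPM against 46.4 and 46.5 CPM (3 higher and 2 lower without Malat1). In cluster 1, Dkk3 was at 5.58 and 5.23 CPM and Hes5 at 430 and 550 CPM, and neither differed from cluster 3 by the rule. The Shh list (10 tested) and the Eph and guidance list (19 tested) had no member past the rule and 1 higher each without Malat1, and no member of the hindbrain and spinal list had enough UMIs to be tested.

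Some core astrocyte genes were at lower levels in cluster 3. Of 15 astrocyte identity genes 6 were lower and 0 higher, including both glutamate transporters: Slc1a2 was at 3067 and 3382 CPM against 5424 and 5657 CPM, and Slc1a3 at 1396 and 1214 CPM against 2543 and 2239 CPM. In cluster 1, Slc1a2 was at 4192 and 4414 CPM, above cluster 3 by the rule. Slc1a3 was at 1363 and 1334 CPM there, so its low level was shared with cluster 1. The glutamate and GABA list had 5 of 16 lower and 1 higher. The AMPA receptor gene Gria2 went the other way, at 1756 and 1928 CPM against 1252 and 1378 CPM (log2 ratios of 0.49 and 0.48), and it was also higher than in cluster 1. With Adrb1 and Hrh1 it made 3 of 26 receptor genes higher, with 3 lower (Grm3, Gabbr2 and Ednrb), or 5 higher and 2 lower without Malat1 in the total. The potassium channel and endfoot list had 4 of 23 lower, led by the sodium pump gene Atp1b1 at 16.5 and 10.9 CPM against 54.3 and 43.5 CPM, and 1 higher, the channel gene Kcnn2. Lower members were also 7 of 15 in the lipid list (Apoe at 14839 and 12487 CPM against 22611 and 19243 CPM), 9 of 25 in the matrix list (Hapln1, Sparc) and 6 of 15 in the heat shock list. Without Malat1 in the total, lower members were 5 of 15 in the astrocyte identity list, 5 of 15 in the lipid list, 6 of 25 in the matrix list and 2 of 15 in the heat shock list, and the glutamate list had 3 higher and 3 lower of 16 and the potassium list 1 higher and 3 lower of 23.

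Gfap (chromosome 11, 102887336 to 102900912, minus strand), the intermediate filament gene that rises in reactive astrocytes, was at 17.7 CPM in wildtype and 20.7 CPM in transgenic cluster 3 cells against 189 and 241 CPM in the other astrocytes. The log2 ratios were -3.42 (-3.77 to -3.09) and -3.54 (-4.04 to -3.08). In cluster 1 it was also low, at 30.6 and 30.5 CPM. It was detected in 2.60% and 3.77% of thinned cluster 3 cells (7.11% and 10.5% unthinned), and in 1.45% and 2.08% of thinned microglia (3.28% and 5.21% unthinned). The intervals of the thinned shares overlapped, so thinned detection did not settle whether cluster 3 stood above background. The level of Gfap in microglia was 5.4 and 7.2 CPM, below the 17.7 and 20.7 CPM of cluster 3. In the pan-reactive list 5 of 9 tested members were lower and 0 higher (Vim, Cd44, Osmr and Serpina3n besides Gfap), or 4 lower without Malat1 in the total. The A1 list had 2 of 8 lower, Ggta1 and Fbln5, and the A2 list 1 of 3, S100a10. The cholesterol synthesis list had 2 higher, among them Insig1, and Pmvk lower of 23 (6 higher and 0 lower without Malat1 in the total), and the thyroid and circadian list Per3 higher and 2 lower of 20 (3 higher and 1 lower without it). The immediate early list had 2 of 17 lower (Fos, Klf6; 0 without Malat1), the interferon list 1 of 14 (Ifit2; 1 higher and 0 lower without Malat1), the unfolded protein list 1 of 16 (Canx; 1 higher and 1 lower), the Parkinson disease list 3 of 14 (Pink1, Chchd2, Scarb2; 2 lower), and the mitochondrially encoded list 0 of 13 in either direction.

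**Figure D3:**
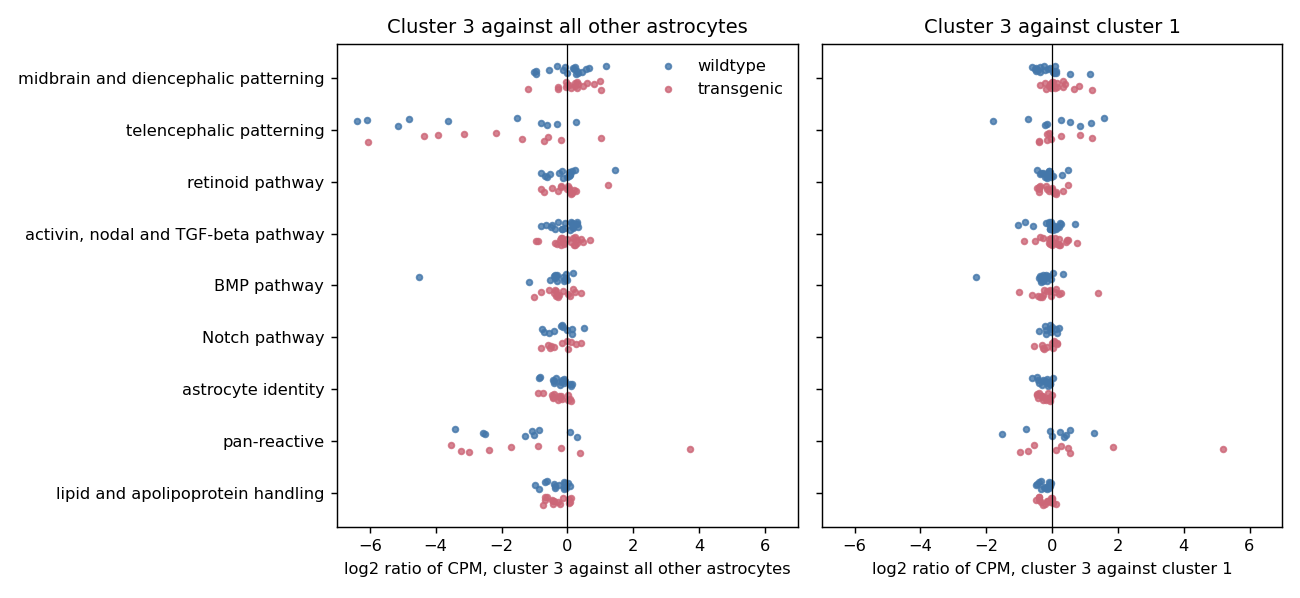
Log2 ratio of CPM (x axis) of members of 9 gene lists (rows), cluster 3 against all other midbrain astrocytes (left) and cluster 1 (right). Wildtype is in blue and transgenic in red, 1 point a gene. Both panels show the members tested against the other astrocytes. Some on the right, such as Hopx and Lhx2, had too few UMIs to be tested against cluster 1. A gene at 0 UMIs on 1 side is set to a floor of 3. Against all other astrocytes, 8 of 10 telencephalic and 5 of 9 pan-reactive genes are lower by the rule for lists. Lef1 of the telencephalic list (0.27 and 1.02) and Aspg of the pan-reactive list (0.29 and 0.40) lie to the right of 0, as does Cxcl10 in transgenic cells (3.73). The astrocyte identity list has medians of -0.20 and -0.26 against the other astrocytes and -0.18 and -0.28 against cluster 1, and the lipid list -0.26 and -0.40 against -0.15 and -0.16.

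Against cluster 1 the rule held for 0.746% (higher) and 2.79% (lower) of 10192 genes. Of the astrocyte identity list 6 of 15 were lower and 0 higher, led by the water channel gene Aqp4 at 984 and 948 CPM against 1492 and 1312 CPM. Aqp4 was detected in 88.4% and 87.5% of thinned cluster 3 cells and in 95.3% and 95.1% of cluster 1 cells (95.01% and 95.9% against 99.4% and 100% unthinned). The potassium and endfoot list had 7 of 23 lower, the lipid list 5 of 15 and the matrix list 5 of 23, with Igfbp2, an insulin-like growth factor binding protein gene, at 218 and 317 CPM against 358 and 462 CPM. In the other direction, Itih3 of the matrix list was at 716 and 699 CPM against 516 and 524 CPM. The Shh list had 1 of 9 higher and 1 lower, the co-receptor gene Gas1, but 2 higher and 0 lower without Malat1 in the total. Without Malat1 in the total, 4 of 15 identity genes, 4 of 23 potassium and endfoot genes, 4 of 15 lipid genes and 4 of 23 matrix genes were lower than in cluster 1.

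Between genotypes, cluster 3 was compared as 1 library against 1. At 1.5 times or more and at least 20 CPM, 233 genes (3.26% of 7139) were higher in the transgenic library and 168 (2.35%) lower, and the interval left out 0 for 387 of these 401 genes. In the other midbrain astrocytes, a pool with more UMIs, 72 genes (1.02% of 7087) were higher and 49 (0.691%) lower. The interval in cluster 3 left out 0 for 229 higher and 158 lower genes. Of these, 131 and 68 moved the same way in the other astrocytes with an interval leaving out 0. For 175 of the 401 genes the difference between both ratios had an interval leaving out 0. That gap is partly set by the choice of genes by their ratio in cluster 3. For the 3 marks the intervals included 0: the log2 ratio of transgenic over wildtype was -0.12 (-0.64 to 0.37) for Cyp26b1, 0.28 (-0.13 to 0.68) for Pax3 and 0.01 (-0.41 to 0.41) for Acvr1c. For Cyp26b1 it was -0.77 where cells needed fewer than 10% mitochondrial UMIs and 500 genes, and -1.26 where they needed fewer than 5%.

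Prnp, the prion protein gene, was at 1266 CPM in wildtype and 1502 CPM in transgenic cells, a log2 ratio of 0.25 (0.18 to 0.31), and the other astrocytes had 0.20 (0.17 to 0.23). Gfap in cluster 3 gave 0.23 (-0.37 to 0.81), and in the other astrocytes 0.35 (0.26 to 0.43). RNA of other cell types differed between the libraries of cluster 3, and its part in the genotype values was not tested. The 13 microglial markers summed to 315 CPM in wildtype and 468 CPM in transgenic cells, with 6 members higher and 0 lower and none at 0. The 5 erythroid genes summed to 54.1 and 285 CPM, with 4 higher, and 1 was at 0 in wildtype cells. The 6 choroid plexus markers, led by Ttr at 3491 and 2104 CPM, summed to 3535 and 2136 CPM, with 2 lower. Endothelial markers summed to 242 and 214 CPM and mural markers to 217 and 189 CPM.

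The genes highest in transgenic cluster 3 cells by ratio belonged to no single pathway list. Ccdc152 was at 29.3 CPM in wildtype and 75.6 CPM in transgenic cells, a log2 ratio of 1.37 (1.01 to 1.73), and the other astrocytes had 0.80 (0.63 to 0.98). It overlaps the selenoprotein P gene Selenop on the opposite strand, at 530 and 578 CPM, and the use of strand in the counting is not given in the sources used here. Hif3a, a hypoxia-inducible factor subunit that dampens the hypoxia response, was at 23.5 and 47.3 CPM, a log2 ratio of 1.01 (0.58 to 1.44), and the other astrocytes had 0.77 (0.52 to 1.03), but it was 0.17 in cells under 5% mitochondrial UMIs. Plat, tissue plasminogen activator, was at 30.0 and 55.0 CPM, a ratio of 0.87, and the other astrocytes had 0.35; thinned to 3000 UMIs a cell, the ratio was 0.57. Lgr6, an R-spondin receptor gene, was at 43.0 and 77.3 CPM, and Amy1 at 36.2 and 67.5 CPM. Bub3, a spindle checkpoint gene, was at 25.8 and 44.1 CPM, a ratio of 0.77 (0.34 to 1.199), while the other astrocytes gave 0.02 (-0.18 to 0.22). The other 6 named genes, Mtmr11, Polr3d, Hlcs, Ripor2, Igip and Zfp160, had log2 ratios of 0.77 to 0.85. In cells under 5% mitochondrial UMIs, Hlcs was at 0.43, Igip at 0.13 and Zfp160 at 0.52, short of 1.5 times. These 12 genes, too, were named for the size of their ratio in cluster 3.

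Egr1 (chromosome 18, 34859823 to 34864984, plus strand), a zinc-finger factor induced within minutes of stimulation, was at 86.0 CPM in wildtype and 28.8 CPM in transgenic cells, a log2 ratio of -1.58 (-2.02 to -1.16). The other astrocytes had -1.43 (-1.62 to -1.25), a ratio of like size from the same libraries. Microglia of the same libraries held 2840 and 2668 CPM of Egr1, the microglial markers of cluster 3 summed to 315 and 468 CPM, and the part of microglial RNA in the difference was not tested. The ratio of Egr1 was -0.98 in the 215 wildtype and 73 transgenic cells under 5% mitochondrial UMIs and -2.15 with cells of other types' markers left out. Errfi1, a feedback inhibitor of the EGF receptor, was at 25.6 and 9.25 CPM, a ratio of -1.47 (-2.30 to -0.72), and -0.63 in cells under 5% mitochondrial UMIs, and the other astrocytes had -0.12 (-0.44 to 0.19). Nedd4l, a ubiquitin ligase gene, and Nde1, a dynein regulator gene, were at 36.5 and 18.5 CPM and at 36.01 and 18.0 CPM in cluster 3 and had ratios of -0.02 and 0.03 in the other astrocytes. Fez2, Spin1, the AP-1 gene Junb, Sptlc2 (a subunit of serine palmitoyltransferase), Slc43a2 (an amino acid transporter gene), Entpd1 (an ectonucleotidase gene), the linker histone gene Hist1h1e and Ier2 had ratios between -1.17 and -0.95, and between -0.83 and -0.05 in the other astrocytes. Since these 12 genes were named for the smallest ratios in cluster 3, a gap to the other astrocytes is partly set by that choice, and 8 of the 12, Errfi1 among them, reached 20 CPM in the wildtype library alone. Reads of Hist1h1e may be split with its close copies.

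**Figure D4:**
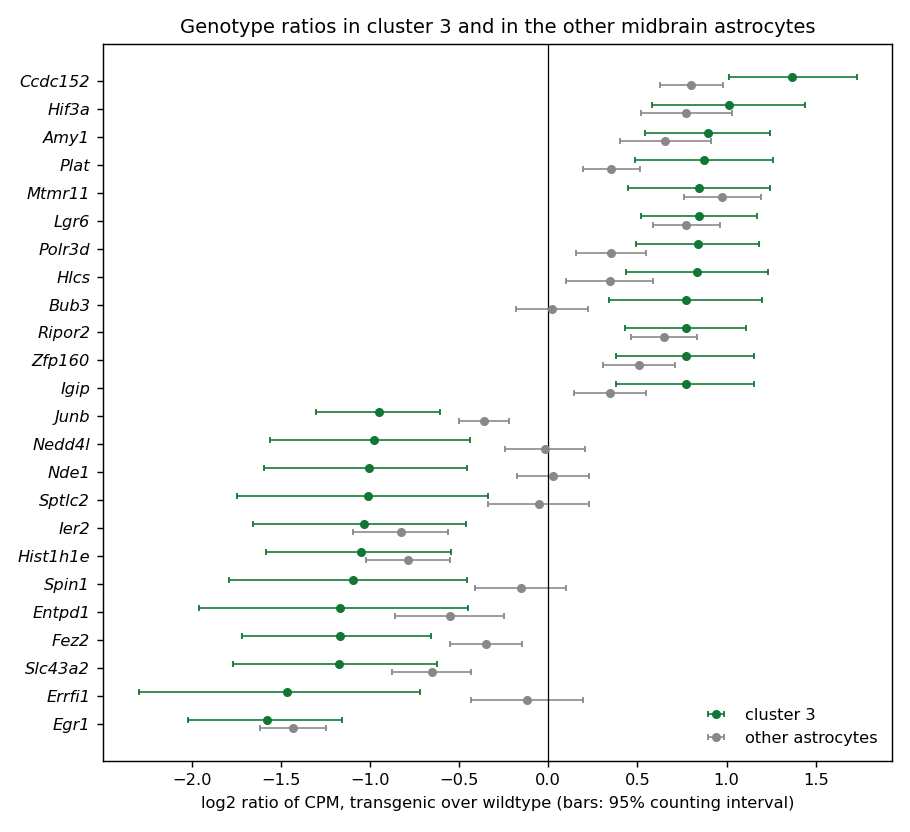
Log2 ratio of CPM, transgenic over wildtype (x axis), of the 24 genes named by size of ratio in cluster 3 (rows), for cluster 3 in green and the other midbrain astrocytes in grey, with 95% counting intervals as bars. Egr1 is at -1.58 and -1.43, while Errfi1, Nde1 and Nedd4l are low in cluster 3, whose ratios chose the genes, and near 0 in the other astrocytes.

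Over the gene lists, 7.20% of 9513 tested genes were higher and 7.11% lower between genotypes at 1.2 times or more with an interval leaving out 0, with a median log2 ratio of -0.02. Of the immediate early list 8 of 17 were lower and 1 higher, Fosb, with a median of -0.49. Besides Egr1, Junb was at 90.4 CPM in wildtype and 46.8 CPM in transgenic cells, Dusp1 at 78.8 and 44.1 CPM, Zfp36 at 57.2 and 32.1 CPM and Fos at 96.0 and 68.6 CPM. These genes respond to handling and dissociation in many tissues, and the part of dissociation in the difference was not tested. Of the interferon list 5 of 9 were higher (among them Ifit3, Irf9, Stat2 and Xaf1) with a median of 0.63. Much of this lay in a pair of cells: 129 and 88 of the 762 interferon-list and Cxcl10 UMIs of transgenic cluster 3 lay in 2 of 294 cells, against 18 and 12 of 1113 in the top 2 wildtype cells. Without the top 2 cells of each library, the median was 0.33, 2 of 9 members remained higher (Irf9 and Stat2), and the ratio of Ifit3 was 0.13 (-0.59 to 0.81) in place of 1.18 (0.65 to 1.71).

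The patterning genes of the midbrain list had 4 of 15 tested members higher in transgenic cells, Pax6, Otx2, Irx2 and Irx3, and 1 lower, Nkx6-2, with a median of 0.28. Otx2, a factor of forebrain and midbrain identity, was at 51.3 and 70.2 CPM, a log2 ratio of 0.45 (0.13 to 0.77), and Irx2 at 45.3 and 64.8 CPM, 0.52 (0.17 to 0.85). Nkx6-2 was at 159 and 91.4 CPM, -0.80 (-1.05 to -0.56). In the other astrocytes the ratios were 0.25 for Pax6, 0.10 for Otx2, 0.36 for Irx2, 0.44 for Irx3 and -0.56 for Nkx6-2. In the telencephalic list 2 of 4 tested were lower, among them Six3. These genes help to define the clusters, so a different mix of cells under 1 cluster number and a different level per cell cannot be told apart. The unfolded protein list had 5 of 15 higher and 0 lower, with a median of 0.08: the chaperone gene Hspa5 was at 308 and 400.5 CPM, 0.38 (0.25 to 0.51), and Sdf2l1 at 6.74 and 16.9 CPM, with Ddit3, Nupr1 and Cdkn1a. The heat shock list had 0 of 14 in either direction. The mitochondrially encoded list had 6 of 13 higher and 0 lower with a median of 0.20, led by mt-Nd6 at 206 and 331 CPM, and the mitochondrial share of cluster 3 was 6.74% and 7.17%.

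Clock and thyroid hormone genes went both ways, with 4 of 19 higher and 4 lower. Hr, a thyroid hormone target, was at 20.9 and 44.6 CPM, a log2 ratio of 1.09 (0.64 to 1.54), and Arntl, the clock activator gene, at 42.8 and 70.7 CPM, with Slco1c1 and Nr1d2, while Dbp was at 173 and 119.7 CPM, -0.53 (-0.76 to -0.31), with Per3, Hlf and Klf9. In the other astrocytes the ratios were 0.81 for Hr, 0.53 for Arntl, 0.30 for Slco1c1 and -0.01 for Nr1d2. They were -0.45 for Dbp, -0.40 for Per3, -0.35 for Hlf and -0.08 for Klf9. The time of day at which the mice were killed is not given in the sources used here. In the Wnt list 4 of 15 were higher (Lgr6, Rspo3, Fzd10, Tcf7l2) and 3 lower (Fzd1, Fzd2, Sfrp5). In the activin list the receptor gene Tgfbr1, Smad7 and Skil were higher and Smad4 lower of 16, and in the BMP list Id4, Id2 and Bmpr1a were lower of 13. Ratios in the other astrocytes were 0.34 for Tgfbr1, 0.14 for Smad7, 0.65 for Skil and -0.36 for Smad4. For Id4, Id2 and Bmpr1a they were -0.95, -0.07 and -0.23. In the Notch list Notch2, Jag1 and Heyl were higher of 11. Of 25 receptor genes 4 were higher, led by the metabotropic glutamate receptor gene Grm5 at 9.53 and 22.3 CPM, and 2 lower, Adora1 and Ednrb. Of 15 astrocyte identity genes 1 was higher, Sox9, at 575 and 758 CPM, a ratio of 0.40 (0.30 to 0.49). The ratio of Sox9 in the other astrocytes was 0.41. The lipid list had Fabp7 and Lrp1 higher and Scd1 and Fabp5 lower of 14, and the matrix list Igfbp2 and Mmp14 higher and 3 lower of 21. The glutamate list had Slc6a9 higher and Slc7a11 lower of 16, the cholesterol list 2 higher, among them Insig1, and Ebp lower of 23, and the guidance list Ephb3 and Plxnb1 higher and Nrp1 lower of 10. The retinoid list had 1 higher of 14, the potassium list Kcnj16 higher of 23, the pan-reactive list Cxcl10 higher of 5, the A1 list Amigo2 higher of 4, the A2 and Shh lists 0 of 2 and 0 of 9, and the Parkinson disease list Pink1 lower of 13.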

How the data were processed

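For the authors' processing, Cell Ranger 3.0.0, Seurat 3.1.5 and mm10 are named, per the submitters' processing notes. The deposited matrix holds UMI counts as whole numbers, and the deposited cell table gives each cell's library, type, cluster and mitochondrial percent. The lowest values there are 844 UMIs and 481 genes per cell and the highest mitochondrial share is 20.0%. The filters behind this table, and the treatment of doublets, are not given in the sources used here, and no doublet caller was run. The members and the gene lists were chosen with earlier results of these data known.

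Here, counts were summed per cluster and library and scaled to CPM (Python 3.11.15, SciPy 1.17.1). Log2 ratios have Clopper-Pearson 95% intervals, taken given the 2 counts' sum, and 0 UMIs were set to a floor of 3. Differences between ratios have normal intervals on the log scale. List members needed 100 UMIs over the sums compared between clusters and 50 between genotypes. PCR and cell sampling errors are not covered.

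Named genes were those with the largest and smallest ratios in both libraries (15 and 8 against the other astrocytes, 5 each way against cluster 1, at 20 CPM and 50 UMIs) and the 12 largest and 12 smallest between genotypes (20 CPM and 100 UMIs, direction kept under TMM and per-cell means), without mitochondrial, ribosomal protein, haemoglobin, predicted, Xist and Y-linked genes and other types' markers, plus the marks, Gfap, Prnp and members of each list. Some genes the rule names are not reported here. Further genes of the lists are named to account for each count. Alternatives used edgeR 4.0.16 TMM and DESeq2 1.42.0 size factors. The ratios and intervals were tested on simulated data. Coordinates are whole genes of the GENCODE annotation of GRCm38, the assembly of mm10, since counts do not resolve exons.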

Additional observations from a re-analysis of the deposited data

Results flagged for a closer look

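Cxcl10 and Ifit3 moved in opposite directions between genotypes in cluster 3 and in the other midbrain astrocytes; the difference was not tested. For Cxcl10, an interferon-induced chemokine gene, the log2 ratio of transgenic over wildtype was 3.23 (2.29 to 4.28) in cluster 3 and -3.06 (-3.82 to -2.38) in the other astrocytes. Of its 48 UMIs in transgenic cluster 3 cells, 35 lay in the 2 cells richest in interferon genes, and without the top 2 cells of each library the ratio was 1.47 (0.20 to 2.78). For Ifit3 the ratio was 1.18 (0.65 to 1.71) in cluster 3 and -0.51 (-0.80 to -0.23) in the other astrocytes. Of its 61 transgenic UMIs, 34 lay in those 2 cells, and without them the ratio was 0.13 (-0.59 to 0.81). The other astrocytes are a pool of clusters. In wildtype cells Cxcl10 was at 16.4 CPM in that pool but at 1.15 CPM in cluster 1, which is part of it. Ifit3 was at 24.2 CPM in the wildtype pool and 21.6 CPM in wildtype cluster 1. Whether a few cells also set the ratios of the pool was not tested.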

How the results depend on the processing

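The number of genes past the fold depended on the cells and the scaling used. Between genotypes, 233 genes higher became 818 and 168 lower became 843 with cells of other types' markers left out, 4164 and 1318 with no CPM minimum, 522 and 430 with cells thinned to 3000 UMIs, and 887 and 756 in cells under 5% mitochondrial UMIs; without Malat1 in the total, 357 were higher. Fewer cells or UMIs enter all of these except the change of the CPM minimum and of the total. Leaving Malat1 out of the total also gave 202 lower, and it moved the genotype ratios by only 0.02. It raises every other gene's CPM, so that more genes reach 20 CPM. Against the other astrocytes, 3 genes higher became 17 and 30 lower became 59 with cells of other types' markers left out, 1177 and 141 with no CPM minimum, and 67 and 189 with the other clusters weighted alike; 6 were higher without Malat1, 0 under 10% mitochondrial UMIs with at least 500 genes, and 6 under 5%. TMM, DESeq2 size factors and the deepest cells left out kept each count within 1.5 times, although DESeq2 factors gave 194 higher and 208 lower between genotypes. The genes named by size of ratio kept their sign in every alternative run, 240 values between genotypes and 552 between cluster 3 and the other astrocytes. This was partly set in advance, since the genes were picked for large ratios. Those between genotypes were also picked for keeping their direction under TMM and per-cell means, so their sign could not turn in those runs. Totals without Malat1 and without the interferon-rich cells were chosen after seeing the data. No paired analysis was possible because each genotype has 1 library, and for the same reason no replicate could be left out.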
